A study of Homo sapiens with 4 samples.

Results

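Serpins are a superfamily of proteins that mostly inhibit serine proteases, and several of them govern how much plasmin forms at the cell surface. The genes described here are those whose array name begins with SERPIN followed by a clade letter from A to I, together with PLAU, PLAT and PLAUR, a choice made by name. They numbered 38 of the 27193 genes named on the array and were read by 46 probes on 100 spots. Of these, 28 were bright enough to be tested, among 21990 tested genes in all. RNA was measured on 4 one-color arrays, 2 of MCF10A.B2 control cells and 2 of MCF10A.B2 cells labelled as carrying a shRNA against PAK1, a protein kinase that acts downstream of Rac-type small GTPases. MCF10A is a non-tumorigenic human breast epithelial line, although the labels also carry a breast cancer diagnosis, and the B2 derivative holds a Her2 (ErbB2) receptor that the synthetic crosslinker AP1510 activates. Both groups were grown with 5% horse serum, deprived of serum for 3 h and stimulated with AP1510 for 15 min. The series description names the shRNA as Tet-inducible. The paper's methods call the line without the shRNA wild type and name no control vector. The labels do not say what the control cells carried, how the shRNA was induced, whether the line was a single clone, or whether the 2 arrays of a group came from separate cultures, so the p-values below measure only the spread between arrays, which may be technical.

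In this system, the proteases PLAU (urokinase) and PLAT (tissue-type activator) cleave plasminogen into plasmin, which degrades fibrin and extracellular matrix proteins. PLAUR, a lipid-anchored receptor, holds urokinase at the cell surface. Several serpins, SERPINE2, SERPINB2 and SERPINA5 among them, trap the activators in covalent complexes, SERPINF2 traps plasmin, and endocytic receptors of the LDL receptor family clear the complexes. Clade B serpins lack a classical signal peptide and act mainly inside the cell, many of them in squamous and other stratified epithelia, while clade A holds plasma proteins made largely by the liver.

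Promoter sequences that hold an AP-1 core are shown first, from 5 genes of one cluster and from the receptor gene. The display was chosen by that motif: the windows of SERPINB3 and SERPINB4 in the same cluster hold none, and of the 3 SERPINB7 windows, 2 with the core and 1 without, 1 is shown. The sequences run from 250 bases before to 50 bases after the transcription start, are credited to RefSeq (GRCh38.p14) and read 5′ to 3′ on the strand of the gene. Capitals mark matches on either strand to TGANTCA, the core bound by AP-1, or to TTCNNNGAA, the core of a gamma-activated site, of which the windows below hold 1, TTCAGAGAA in the SERPINB8 window. The core of an interferon-stimulated response element was searched as well and had no match in any window of a tested member.
PLAUR, chr19:43670120-43670419, minus strand: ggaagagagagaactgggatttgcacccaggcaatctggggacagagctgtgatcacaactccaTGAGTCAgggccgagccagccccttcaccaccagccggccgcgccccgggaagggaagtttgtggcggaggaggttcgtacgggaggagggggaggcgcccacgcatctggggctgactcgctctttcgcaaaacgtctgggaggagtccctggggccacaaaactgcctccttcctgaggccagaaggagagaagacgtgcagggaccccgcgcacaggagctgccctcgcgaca
SERPINB5, chr18:63476708-63477007, plus strand: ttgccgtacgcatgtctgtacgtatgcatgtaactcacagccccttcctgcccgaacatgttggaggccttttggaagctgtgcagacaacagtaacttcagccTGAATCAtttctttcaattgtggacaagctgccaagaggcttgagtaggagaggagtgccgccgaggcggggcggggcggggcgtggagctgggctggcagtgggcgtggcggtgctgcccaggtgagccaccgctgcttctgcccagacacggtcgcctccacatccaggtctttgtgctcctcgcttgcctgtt
SERPINB13, chr18:63587093-63587392, plus strand: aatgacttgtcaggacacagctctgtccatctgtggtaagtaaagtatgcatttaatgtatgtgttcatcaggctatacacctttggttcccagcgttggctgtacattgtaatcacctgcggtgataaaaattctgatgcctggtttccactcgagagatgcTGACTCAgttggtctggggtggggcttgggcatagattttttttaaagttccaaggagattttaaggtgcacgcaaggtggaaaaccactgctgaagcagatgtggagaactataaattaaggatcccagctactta
SERPINB7, chr18:63775168-63775467, plus strand: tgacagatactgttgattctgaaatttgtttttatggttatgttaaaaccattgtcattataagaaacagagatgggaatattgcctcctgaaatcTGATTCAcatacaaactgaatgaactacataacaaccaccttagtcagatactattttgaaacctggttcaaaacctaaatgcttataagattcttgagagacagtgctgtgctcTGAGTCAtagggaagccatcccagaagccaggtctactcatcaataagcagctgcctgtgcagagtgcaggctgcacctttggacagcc
SERPINB2, chr18:63887455-63887754, plus strand: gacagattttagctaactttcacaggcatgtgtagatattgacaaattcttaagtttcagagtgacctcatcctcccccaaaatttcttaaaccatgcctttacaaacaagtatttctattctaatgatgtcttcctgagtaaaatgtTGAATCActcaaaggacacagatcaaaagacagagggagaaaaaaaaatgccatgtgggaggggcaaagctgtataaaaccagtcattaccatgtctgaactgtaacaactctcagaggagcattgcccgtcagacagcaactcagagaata
SERPINB8, chr18:63969831-63970130, plus strand: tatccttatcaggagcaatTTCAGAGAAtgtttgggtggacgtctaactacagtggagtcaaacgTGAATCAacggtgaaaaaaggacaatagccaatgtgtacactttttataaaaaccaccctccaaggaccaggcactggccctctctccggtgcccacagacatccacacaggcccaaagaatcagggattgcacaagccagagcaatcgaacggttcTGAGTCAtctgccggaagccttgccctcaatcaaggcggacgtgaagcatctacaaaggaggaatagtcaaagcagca

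The table of promoters held 44 windows for 29 of the 38 genes, 20 of them tested. The AP-1 core stood in a window of 6 of these 20 genes (PLAUR, SERPINB2, SERPINB5, SERPINB7, SERPINB8 and SERPINB13), and 5 of the 6 lie in the chromosome 18 cluster, where 7 tested genes had a window. Of all 27305 genes with a window, 9.37% held the AP-1 core in at least 1 window, and 7.71% of all 35116 windows held it. The gamma-activated site core stood in windows of 5 tested genes (SERPINA5, SERPINA6, SERPINB1, SERPINB7 and SERPINB8), against 9.38% of all genes and 7.66% of all windows. The interferon-stimulated element core, in 3.57% of all windows, stood in none of the tested genes. As given below, of the genes with an AP-1 core PLAUR, SERPINB7, SERPINB8 and SERPINB13 rose, SERPINB5 fell and SERPINB2 did not pass the test. Whether the core has a part in these changes was not tested. A match to these letters describes the window and does not show that a factor binds there.

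PAK1 itself, the target of the shRNA, was read by a probe at chr11:77034135-77034194 (hg19). Control cells had a normalized log2 intensity of 11.19 and 11.28 for PAK1, and PAK1 shRNA cells one of 10.44 and 10.51, a fall to 59.1% of control (log2 fold change -0.76, SE 0.08, adjusted p = 0.00019, limma). All values below are on this log2 scale unless called a fold, all fold changes are PAK1 shRNA minus control with 2 arrays in each group except where a dropped array is named, and adjusted p-values come from limma over all tested genes with Benjamini-Hochberg adjustment. Between 78.9% and 83.2% of the probes were well above background on each array. An exact permutation test of 2 arrays against 2 cannot give a p under 0.333, so no such test was used. Among the marker genes that check the labelled line, the 8 of the basal epithelium exceeded background on each of the 4 arrays. In bulk RNA, fewer cells of a type and less RNA per cell cannot be told apart.

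Of the 28 tested genes, 19 passed the threshold of an adjusted p of 0.05, or 67.9%, beside 62.5% of all tested genes. Higher in PAK1 shRNA cells were 12 (42.9%, beside 30.5% of all genes), and lower were 7 (25%, beside 32% of all genes). A change of at least 2-fold was seen for 8 of the 28 (28.6%, beside 17.9%), 6 of them higher (8.77% of all genes) and 2 lower (9.14% of all genes). The 2 groups did not overlap for 20 of the 27 genes with a value on every array, beside 81.7% of all such genes. The share that passed thus lies near that of the array as a whole, and each gene is therefore given with its size and spread. The median log2 fold change of the 28 was 0.15, beside 0.016 over all genes, and the median size regardless of direction was 0.57 beside 0.38. Counting only genes well above background on all 4 arrays, 12 of 26 were higher and 6 lower. Under an unpaired test of each gene without limma's shared spread, also adjusted, the calls of PLAU, SERPINA1, SERPINA5, SERPINB8 and SERPINB13 were lost. Their adjusted p-values in that test were 0.072, 0.16, 0.17, 0.063 and 0.052, in that order (not exact tests). SERPINH1, with a value on only 1 PAK1 shRNA array, could not be tested this way.

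**Figure D1:**
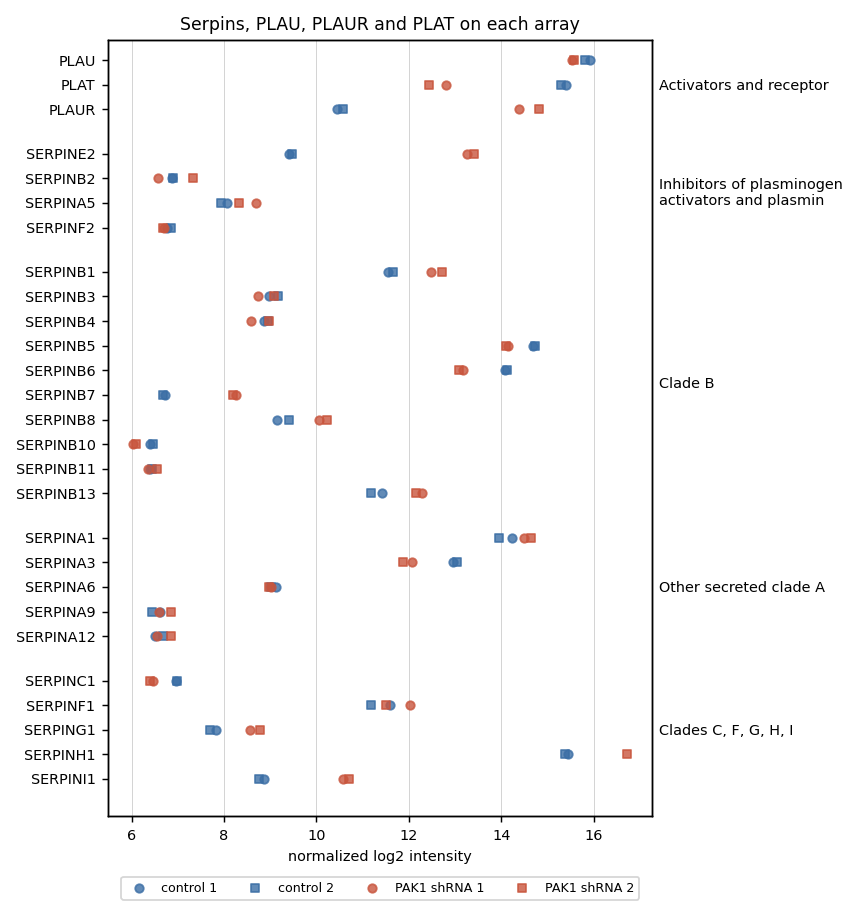
Normalized log2 intensity (x axis) of 27 of the 28 tested genes (y axis, grouped by role) on each array; blue points are control and red points PAK1 shRNA, circles array 1 and squares array 2. PLAUR and SERPINE2 moved far to the right and PLAT far to the left, while the 4 points of SERPINA6, SERPINB11 and SERPINF2 lie close together; PAK1 shRNA array 1 has no point for SERPINH1.

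The activators and their receptor moved apart. PLAT, which activates plasminogen chiefly on fibrin, fell 6.65-fold, while PLAUR rose 16.9-fold and PLAU fell only 1.25-fold. PLAT was at 15.39 and 15.30 in control cells and at 12.79 and 12.44 in PAK1 shRNA cells. Both control values thus lay more than 2 log2 units above both others (log2 fold change -2.73, SE 0.13, adjusted p = 7.3e-06, limma), and 201 of the genes that passed fell further. PLAT was read on chromosome 8 (hg19 start 42032812, end 42032871). PLAUR was at 10.45 and 10.58 in control cells and at 14.38 and 14.81 in PAK1 shRNA cells. The groups were far apart (4.08, SE 0.14, adjusted p = 2.6e-06, limma), and 98 of the genes that passed rose further. The PLAUR probe lies at chr19:44169498-44169557 (hg19) and is a single spot on each array.

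PLAU was at 15.93 and 15.81 in control cells and 15.53 and 15.58 in PAK1 shRNA cells. Its fall was small (-0.32, SE 0.08, adjusted p = 0.011, limma), and a further PLAU probe gave -0.43. The PLAU call depended on the processing. It was -0.17 (adjusted p = 0.15) when the scanner's processed signal was scaled to the 75th percentile, -0.083 (adjusted p = 0.42) under cyclic loess and -0.28 (adjusted p = 0.022) under median centring, and it was lost without PAK1 shRNA array 1 (-0.29, adjusted p = 0.061).

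The probes of PLAU, PLAT and SERPINC1 were printed 10 times on each array, which gives a spread within an array. For PLAT, single spots ran from 14.95 to 15.50 in control cells and from 12.11 to 12.90 in PAK1 shRNA cells, so no spot of one group reached the other. SERPINC1 spots lay between 6.87 and 7.10 in control cells and between 6.29 and 6.57 in PAK1 shRNA cells. PLAU spots overlapped, from 15.62 to 16.13 in control cells and from 15.31 to 15.78 in PAK1 shRNA cells. The SD of these spots within an array was 0.06 to 0.18. Spots of 1 array share its RNA and are not replicates of a condition.

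**Figure D2:**
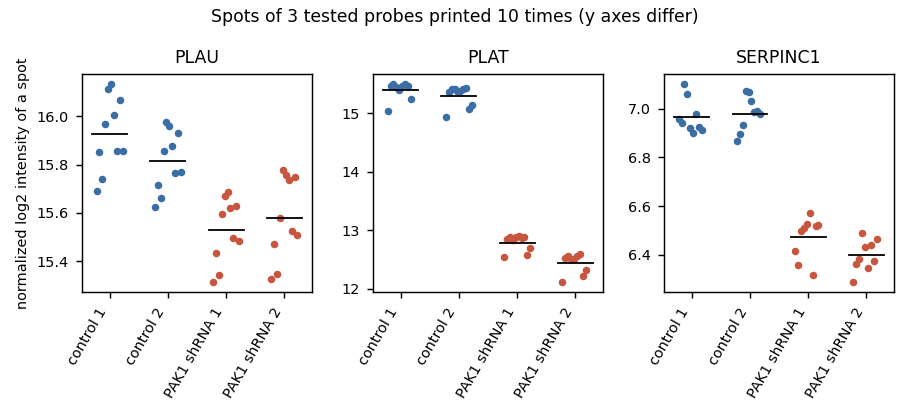
Normalized log2 intensity of each spot (y axis, a different range for each gene) on the 4 arrays (x axis) for 3 tested probes printed 10 times; points are spots left after flagged ones were dropped and the black line is their mean. Spots of the groups overlap for PLAU, and are separate for PLAT and SERPINC1.

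Among the inhibitors of plasminogen activation, SERPINE2 rose by the most. SERPINE2 (protease nexin), which inhibits urokinase, tissue-type activator and thrombin, rose 14.9-fold. SERPINE2 was at 9.41 and 9.47 in control cells and at 13.25 and 13.41 in PAK1 shRNA cells. The arrays of a group differed by less than 0.2 (log2 fold change 3.90, SE 0.08, adjusted p = 6.2e-07, limma), and 115 of the genes that passed rose further. The SERPINE2 probe maps to chr2:224840597-224842295 (hg19), a span longer than the probe's 60 bases.

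SERPINI1 (neuroserpin), an inhibitor of tissue-type activator known from neurons, rose 3.55-fold. It was at 8.86 and 8.76 in control cells and at 10.57 and 10.70 in PAK1 shRNA cells, with no overlap (1.83, SE 0.08, adjusted p = 7.1e-06, limma). SERPINA5 (protein C inhibitor), which also inhibits urokinase, rose less, from 8.05 and 7.92 to 8.69 and 8.32 (0.52, SE 0.13, adjusted p = 0.012, limma). Its PAK1 shRNA arrays differed from each other by most of that difference, and the call was lost without control array 2 (0.45, adjusted p = 0.065) while the value was 0.34 without PAK1 shRNA array 1 and 0.33 with the background model fitted on all spots.

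SERPINB2, a further inhibitor of urokinase, did not pass the test, and its PAK1 shRNA arrays lay on either side of control. It was at 6.87 and 6.90 in control cells and at 6.57 and 7.32 in PAK1 shRNA cells (0.055, SE 0.22, adjusted p = 0.85, 95% interval -0.48 to 0.59, limma). Without PAK1 shRNA array 1 the value was 0.43 (adjusted p = 0.012) and without array 2 it was -0.32 (adjusted p = 0.039), so each array alone gave a call in its own direction. SERPINF2, the plasmin inhibitor of plasma, was dim in both groups, at 6.77 and 6.85 against 6.71 and 6.68 (-0.12, adjusted p = 0.21, 95% interval -0.29 to 0.06, limma).

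**Figure D3:**
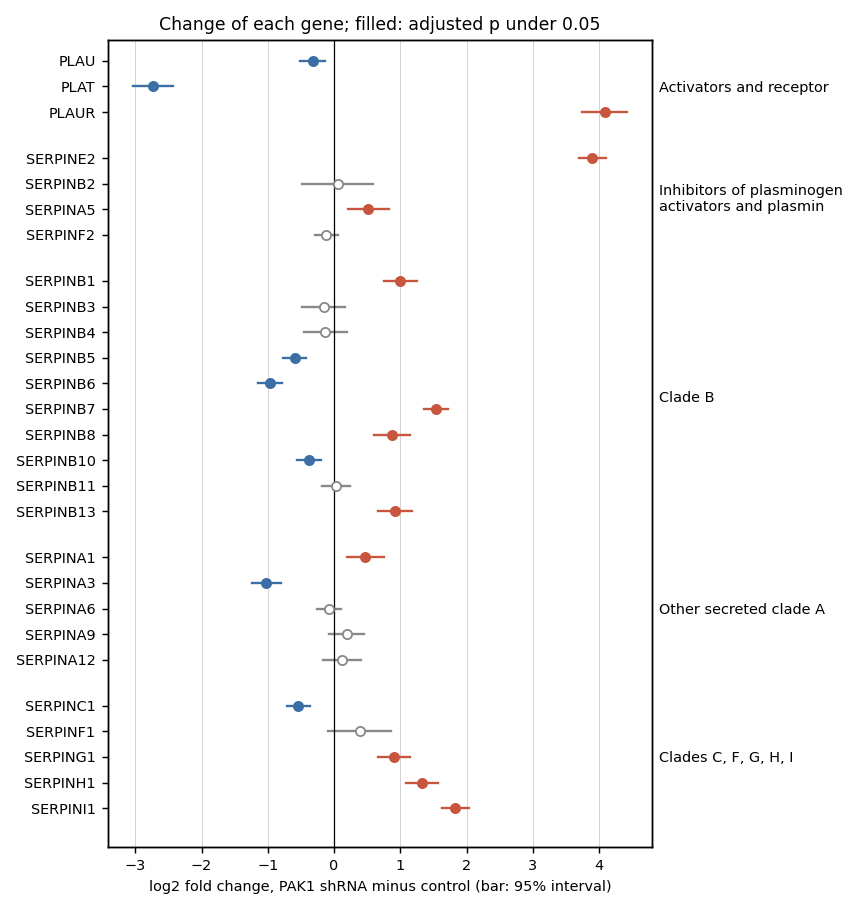
Log2 fold change, PAK1 shRNA minus control (x axis), of 27 of the 28 tested genes (y axis) with the 95% interval of limma's fit as a bar; filled red points passed the threshold as higher, filled blue as lower, and open gray points did not pass. PLAUR (4.08) and SERPINE2 (3.90) stand apart on the right and PLAT (-2.73) on the left.

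Clade B serpins moved in both directions. Counting SERPINB2, 4 of the 11 tested genes of this clade were higher, 3 lower and 4 did not pass. Of these, 9 were read on chromosome 18, where 3 were higher, 2 lower and 4 did not pass. In the order of their probes along that chromosome (hg19) these were SERPINB5, SERPINB13, SERPINB4, SERPINB3, SERPINB11, SERPINB7, SERPINB2, SERPINB10 and SERPINB8. SERPINB7 (megsin), known from mesangial cells and skin, rose 2.90-fold, from 6.72 and 6.67 to 8.26 and 8.20 (1.54, SE 0.07, adjusted p = 8.3e-06, limma). The groups did not overlap, but the size of the rise of this dim probe depended on the processing, at 0.88 with the background model fitted on all spots and 2.74 with the scanner's processed signal scaled to the 75th percentile. SERPINB13 (headpin), an inhibitor of lysosomal cysteine cathepsins in keratinocytes, was at 11.42 and 11.17 in control cells and at 12.29 and 12.15 in PAK1 shRNA cells (0.92, SE 0.11, adjusted p = 0.00034, limma). SERPINB8, which inhibits furin, went from 9.15 and 9.40 to 10.06 and 10.23 (0.87, SE 0.11, adjusted p = 0.00056, limma).

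SERPINB5 (maspin), a non-inhibitory serpin of normal breast epithelium, fell. It was bright on all arrays, at 14.70 and 14.72 in control cells and at 14.14 and 14.09 in PAK1 shRNA cells (-0.59, SE 0.07, adjusted p = 0.00045, limma). The SD between arrays was 0.019 in control cells and 0.036 in PAK1 shRNA cells, and the fold change stayed between -0.62 and -0.43 under every alternative tried. SERPINB10 was well above background on both control arrays and on neither PAK1 shRNA array, at 6.39 and 6.47 against 6.03 and 6.09, which gives at least 1.18-fold lower. It was tested only through the control group, where it was the brighter, so that its place among the genes that passed rests on that. Median centring ended its call (-0.025, adjusted p = 0.86), and the processed signal gave -2.27 and the background model fitted on all spots -0.19.

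SERPINB3 and SERPINB4, the squamous cell carcinoma antigens and close paralogs, did not pass. SERPINB3 was at 8.97 and 9.17 against 8.73 and 9.09 (-0.16, adjusted p = 0.34, 95% interval -0.48 to 0.17, limma). SERPINB4 was at 8.86 and 8.96 against 8.59 and 8.97 (-0.13, adjusted p = 0.42, 95% interval -0.45 to 0.19, limma). PAK1 shRNA array 1 was the lowest for both genes, and without it they gave 0.019 and 0.063, whereas without array 2 SERPINB4 passed at -0.32 (adjusted p = 0.044). In their best alignment without gaps the SERPINB3 and SERPINB4 probes shared 24 of 57 overlapping bases, and whether either probe also matches the transcript of the other gene was not checked. SERPINB11 was at the edge of background, at 6.40 and 6.45 against 6.36 and 6.55, and was well above it on 1 control array and both PAK1 shRNA arrays (0.027, adjusted p = 0.81, limma).

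On chromosome 6, a pair of clade B genes moved in opposite directions. SERPINB1, an inhibitor of neutrophil elastase, was at 11.56 and 11.65 in control cells and at 12.48 and 12.73 in PAK1 shRNA cells (1.00, SE 0.10, adjusted p = 0.00021, limma). SERPINB6, an inhibitor of cathepsin G and thrombin, was at 14.08 and 14.11 in control cells and at 13.17 and 13.09 in PAK1 shRNA cells (-0.97, SE 0.07, adjusted p = 5.9e-05, limma), and its other probe gave -1.18. Neither gene's groups overlapped.

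Of the 6 tested clade A genes, all read on chromosome 14, 2 were higher, 1 lower and 3 did not pass. SERPINA3 (antichymotrypsin) was at 12.95 and 13.05 in control cells and at 12.08 and 11.88 in PAK1 shRNA cells, 2.03-fold lower (-1.02, SE 0.09, adjusted p = 0.00012, limma). Its 3 probes, which differ in brightness, gave -1.02, -1.03 and -1.06. SERPINA1, the elastase inhibitor antitrypsin, was at 14.24 and 13.95 against 14.49 and 14.64 (0.47, SE 0.12, adjusted p = 0.011, limma), a call that was lost without PAK1 shRNA array 2 (0.39, adjusted p = 0.061). SERPINA6, the glucocorticoid carrier of plasma, was at 9.12 and 9.03 against 9.02 and 8.98 (-0.072, adjusted p = 0.44, 95% interval -0.25 to 0.11, limma). SERPINA9 and SERPINA12 lay between 6.45 and 6.86 on the 4 arrays and did not pass, at 0.19 (adjusted p = 0.19) and 0.12 (adjusted p = 0.44). Both passed under median centring, at 0.45 (adjusted p = 0.0067) and 0.40 (adjusted p = 0.048), and with 1 array left out SERPINA9 ran from 0.057 to 0.32.

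SERPINH1, a collagen chaperone of the endoplasmic reticulum that inhibits no protease, was at 15.44 and 15.37 in control cells and at 16.73 on PAK1 shRNA array 2. Its value on PAK1 shRNA array 1 was dropped because the local background of the spot was flagged, and the fit on the other 3 arrays gave 1.32 (SE 0.10, adjusted p = 0.00012, limma), in which the lone PAK1 shRNA array is assumed to vary like the control arrays. With the flagged spot kept the value was 1.35. SERPING1, the inhibitor of the first complement component, was at 7.83 and 7.70 against 8.56 and 8.78 (0.90, SE 0.10, adjusted p = 0.00029, limma). Its other probes rose more, at 1.79 for one and at least 3.58-fold for the other, which was not well above background in control cells, and the mean over the probes was 1.54. With the background model fitted on all spots SERPING1 gave 0.57. SERPINC1, the antithrombin of plasma, fell from 6.97 and 6.98 to 6.47 and 6.40 (-0.54, SE 0.07, adjusted p = 0.00075, limma), and the value of this dim gene was -1.34 with the processed signal, -0.29 with the background model fitted on all spots and -0.27 with median centring. SERPINF1, a secreted neurotrophic and antiangiogenic serpin without inhibitory activity, was at 11.58 and 11.19 against 12.03 and 11.51, and the groups overlapped (0.39, SE 0.20, adjusted p = 0.13, limma). Within each group array 1 was the higher for SERPINF1, and the value ran from 0.13 (adjusted p = 0.56) without PAK1 shRNA array 1 to 0.64 (adjusted p = 0.022) without PAK1 shRNA array 2.

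The 10 genes that were not tested were too dim in both groups. SERPINA4, SERPINA7, SERPINA10, SERPINA11, SERPINA13 and SERPINB12 were not well above background on any array. SERPINB9, SERPIND1, SERPINE3 and SERPINI2 were so on 1 or 2 arrays, but not on both arrays of a group. For SERPINE3 the values were 6.46, 6.40, 7.78 and 6.33, and PAK1 shRNA array 1 stood above the other 3.

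**Figure D4:**
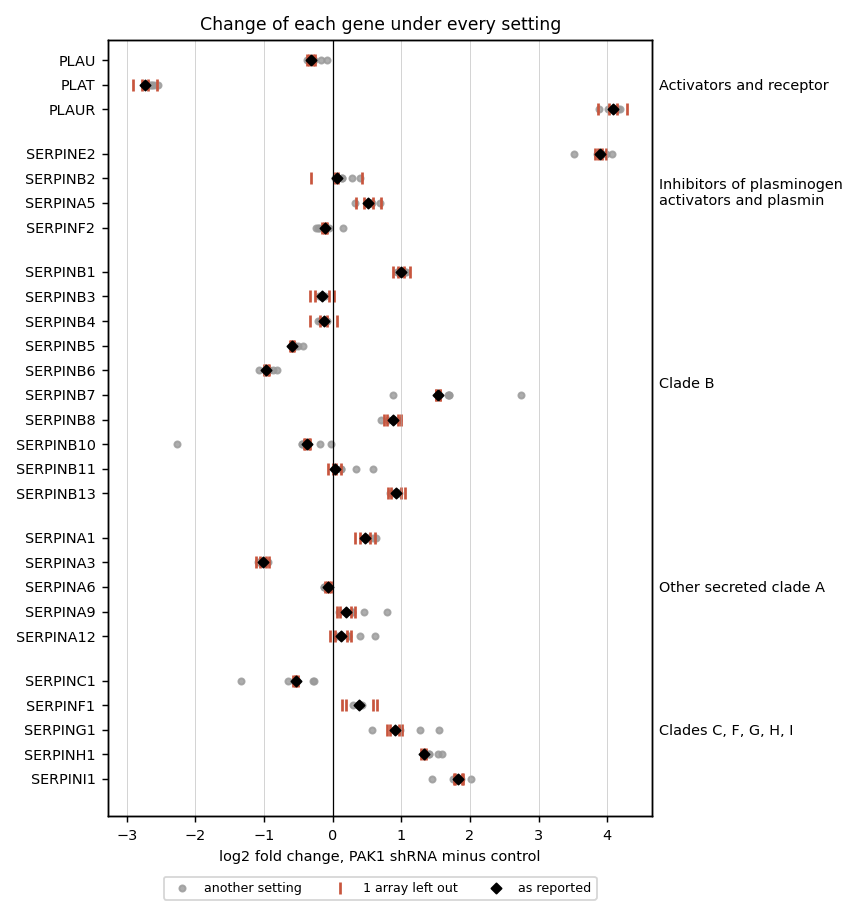
Log2 fold change, PAK1 shRNA minus control (x axis), of 27 of the 28 tested genes (y axis) as reported (black diamonds), under other ways of processing the arrays (gray points) and with 1 array left out (red bars). PLAT, PLAUR, SERPINE2 and SERPINI1 stay far from 0, SERPINB2 lies on both sides of 0, and SERPINB7 and SERPINB10 spread widely along the axis.

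Other genes of the pathway, from lists fixed by function, also moved in both directions. In the list of plasminogen and fibrinolysis genes, 11 of 13 were tested, 3 were higher, 5 lower and 3 did not pass, with a median log2 fold change of -0.17. Among the 8 that were well above background on all 4 arrays, 1 was higher, 5 lower and 2 did not pass (median -0.45). PLG, plasminogen itself, was barely above background in control cells, at 6.46 and 6.33, and not well above it in PAK1 shRNA cells, at 6.35 and 6.10 (adjusted p = 0.20, limma). TNFAIP6, a matrix protein that enhances plasmin inhibition, was at 6.29 and 6.41 in control cells, where only 1 of the 2 arrays was well above background, and at 10.25 and 11.29 in PAK1 shRNA cells. A2M, a broad protease trap of plasma, was not well above background in control cells and rose at least 2.57-fold. F12 (coagulation factor XII), which can also activate plasminogen, fell by 1.70 (adjusted p = 0.0001, limma). ENO1, an enolase that serves as a plasminogen receptor on cell surfaces, fell by 1.04 (adjusted p = 0.0018, limma) in a fit without PAK1 shRNA array 1, whose spot was flagged.

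A list of 10 genes was drawn up around the endocytic receptors that clear complexes of activators and serpins, and not every entry is such a receptor. All 10 were tested, and 4 were higher, 5 lower and 1 did not pass (median -0.41). VLDLR, which takes up urokinase bound to its inhibitors, was at 7.53 and 7.56 in control cells and 9.15 and 9.19 in PAK1 shRNA cells (1.63, SE 0.07, adjusted p = 6e-06, limma). IGF2R, which binds PLAUR, rose by 0.94. SORL1, a sorting receptor that binds urokinase complexes, was at 14.76 and 14.57 against 12.74 and 12.58 (4.01-fold lower, adjusted p = 9.7e-06, limma). LRP8, an apolipoprotein E receptor, fell by 1.56 in a fit without control array 1, whose spot was flagged.

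In the list of coagulation genes, 12 of 13 were tested, 3 were higher, 5 lower and 4 did not pass (median -0.065), or 3, 5 and 3 of the 11 well above background on all 4 arrays. F3, the tissue factor that starts coagulation, rose by 2.80, from 12.96 and 13.15 to 15.68 and 16.03, and PROCR, the protein C receptor, by 1.81. THBD (thrombomodulin) and F2R, a thrombin receptor, fell by 1.01 each. Of 15 surface proteases and their inhibitors, 13 were tested, 5 were higher, 4 lower and 4 did not pass (median 0.12), with PRSS8 (prostasin) at 1.51, its inhibitor SPINT2 at 0.99, and the kallikrein-related peptidases KLK5 and KLK6 at -1.63 and -0.68. A list of 15 proteases was drawn up around targets of intracellular and leukocyte serpins, and not every entry is a known target. All 15 were tested, and 6 were higher, 2 lower and 7 did not pass (median 0.16). Of the 14 well above background on all 4 arrays, these counts were 5, 2 and 7. CTSS (cathepsin S) was not well above background in control cells and rose at least 5.63-fold, the granzyme GZMM rose by 0.94, and the cathepsins CTSV (named CTSL2 on the array) and CTSH fell by 0.71 and 0.64. These lists describe neighbours of the serpins, and the shares that moved lie beside 62.5% of all genes.

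**Figure D5:**
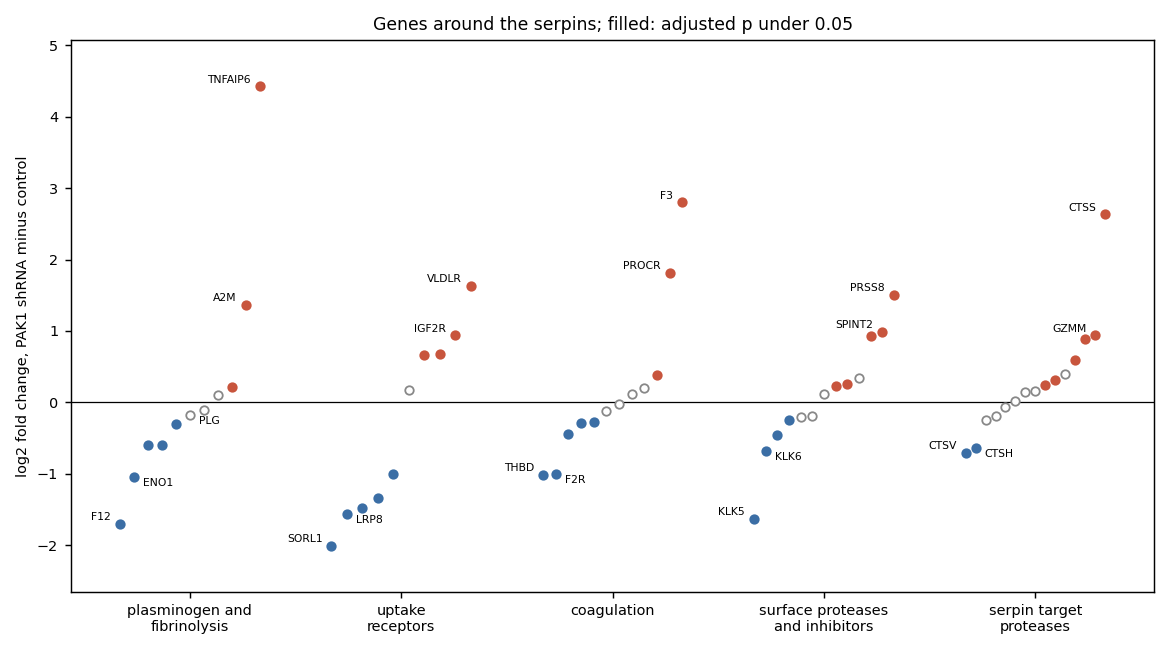
Log2 fold change, PAK1 shRNA minus control (y axis), of the tested genes in 5 lists (x axis, ordered by value within a list); filled red points passed the threshold as higher, filled blue as lower, and open points did not pass. F3 (2.80) lies high among the coagulation genes and SORL1 low in the uptake receptor list. A2M, CTSS and an unlabelled coagulation gene exceeded background on neither control array. TNFAIP6 did so on 1 control array and PLG on neither PAK1 shRNA array. The heights of these genes are not exact.

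Markers of other cell types moved with these changes in part, and their part in the results was not tested. Normalized intensities of the fibroblast markers were summed over those tested with a value on every array, as for the lists below. The sum was 4720 and 3980 in control cells and 7960 and 7780 in PAK1 shRNA cells. DCN was the brightest gene in it, at 11.98 and 11.74 in control cells and 12.75 and 12.70 in PAK1 shRNA cells. Of the 7 fibroblast markers, COL1A2, COL3A1 and THY1 were not well above background in either group, COL1A1, DCN and LUM were higher (0.86, 0.86 and 1.79) and PDGFRB was lower (-0.58). Leukocyte markers summed to 2060 and 1920 against 3090 and 2690, with CD14 and CSF1R higher, 3 others not past the threshold and LYZ not found on the array by name. CD14, the value of which was dropped on PAK1 shRNA array 2, is not in that sum, in which CSF1R was the brightest gene. Hepatocyte markers, listed because many clade A serpins are liver genes, summed to 817 and 879 against 417 and 413. FGB and TTR were not well above background in either group, HP was lower and ALB higher. APOA1, dropped on control array 1 and so not in the sum, was not past the threshold. Endothelial markers summed to 1040 and 1090 against 852 and 821, without KDR, whose value on PAK1 shRNA array 1 was dropped. PECAM1 (-1.56) and TEK were lower, TEK exceeding background on neither PAK1 shRNA array, VWF (0.37) was higher, and CDH5 and KDR did not pass. Luminal markers summed to 17400 and 16500 against 15500 and 15900, a sum without KRT18, whose value on control array 1 was dropped. Of these markers FOXA1 (1.47) and KRT18 (0.46) were higher, KRT19 (-1.02) and GATA3 (-0.49) lower, ESR1 and KRT8 did not pass and PGR was not well above background on any array. Of the 8 basal markers 2 were higher, 5 lower (KRT5, KRT14, KRT17, TP63 and, without PAK1 shRNA array 2, S100A2) and 1 did not pass. The 7 basal markers with a value on every array summed to 462000 and 414000 against 395000 and 396000.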

How the data were processed

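RNA of 2 control and 2 PAK1 shRNA samples of MCF10A.B2 cells was hybridized to 1-color Agilent arrays, all on 1 slide, and grouped by the labels. The authors deposited spot intensity values as written by Agilent Feature Extraction (version 9.5, per the submitters' processing notes). They also deposited a table of log2 values of 24302 probes (column medians 9.40 to 9.42). The paper's methods name normexp background correction and quantile normalization, and do not state the scale or centring of this table. No direction applies to 1-color values, and the table served as an alternative. For the present values, the mean intensity and median local background entered normexp (offset 50). Spots of flagged local background (522 to 651 an array) were left out, since the fitted background mean of the control arrays was -666 and -740 over all spots and -9.19 and -12.1 without flagged ones; 8 and 18 spots on these arrays had a background over 100. Control spots were dropped, arrays quantile normalized, outlier-flagged spots left out and spots of a probe averaged. A probe was tested if, in 1 group or both, it exceeded background on each array (flagged by the software as well above it for at least 50% of the spots), and the brightest probe stood for its gene. A fold is a lower bound where a group is not well above background: the brighter group's mean against the dim group's mean of, per array, the higher of the gene's own value and the lowest signal well above background. Genes were tested with limma (3.58.1, R 4.3.3) by lmFit and eBayes, with Benjamini-Hochberg adjustment at 0.05. The tests were also run on simulated data with independent arrays and far fewer changed genes than passed here. That run cannot tell whether the calls hold for the present arrays, which may be technical repeats. The number of arrays limits the precision. Members and gene lists were chosen with earlier results of these data known. Members were named, except 1 tested gene that is counted but not reported here, and of each list up to 2 rises and 2 falls past the threshold, and PLG. Probe coordinates are those of the array files (hg19), and exons or UTRs under a probe were not looked up. Promoters are from RefSeq (GRCh38.p14). A comparison of the proteins was planned and is not reported here. Same-numbered arrays deviated from their group means with a correlation of 0.012, so these values show no pairing by number. That cannot tell whether such arrays were handled as pairs, which the labels do not say.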

Additional observations from a re-analysis of the deposited data

How the results depend on the processing

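Over 18 alternatives, 473 of 499 values of single members kept their direction and their side of the threshold, 11 lost a call, 9 gained one and 6 changed sign. The balance of calls moved with the processing: the median of all genes, 0.016 as reported, was 0.12 with the processed signal scaled to its 75th percentile, which changes the background correction as well as the scaling (7510 genes higher, 6346 lower, members 13 and 6) and 0.14 with median centring (8353 and 6657, members 15 and 6), while cyclic loess gave 7271 and 6678 (members 12 and 6). An unpaired t-test on the same values, Benjamini-Hochberg adjusted, called 4139 genes higher, 4587 lower and 7 members higher. It called 4 genes of the coagulation list, 3 of the serpin target protease list and 5 of the surface protease list. Genes with a dropped value, SERPINH1 among them, could not be tested this way. A fold of at least 2 left 1928 genes higher and 2010 lower, and 6 members higher and 2 lower. The sign changed for SERPINA12, SERPINB11 and SERPINB2 without PAK1 shRNA array 2, for SERPINB3 and SERPINB4 without PAK1 shRNA array 1 (ranges with each array left out -0.035 to 0.27, -0.068 to 0.12, -0.32 to 0.43, -0.34 to 0.019 and -0.32 to 0.063, in that order), and for SERPINF2 (0.14) with median centring, and the cause was not tested. Leaving out each array in turn gave 5615 to 6290 genes higher and 6014 to 6679 lower, members 11 to 13 higher and 6 to 9 lower, and PAK1 at -0.80 to -0.72; the lone array of a group was then assumed to vary like the other group. A fit with a replicate block called 6894 genes higher and 7136 lower, and members 13 and 7, SERPINF1 being added (0.39, adjusted p = 0.0031). The authors' table gave 12 members higher and 7 lower. Keeping spots of flagged background in the averages was chosen after seeing the data and left these counts at 12 and 7. A slide block could not be fitted, with 1 slide. Changes of dim genes such as SERPINB7, SERPINB10 and SERPINC1 are limited by their closeness to background.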
